A study of Mus musculus with 11 samples.

Results

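The genes followed here, 9 in number, act next to the T cell receptor and were measured in RNA from renal CD4+ T cells. They are the kinases *Lck*, *Fyn* and *Zap70*, the adaptors *Lat*, *Lcp2* and *Lime1*, the lipase *Plcg1*, and the receptors *Cd5* and *Ptprc*. They were chosen by symbol, and all 9 were among the 35814 gene symbols of the count table. The libraries came from 3 CD4cre mice (genotype labelled WT), 5 CD4IKK1 mice (labelled IKK1 knockout) and 3 CD4NIK mice (labelled NIK knockout), 1 library per mouse. All mice were C57BL/6 males of 8 to 12 weeks, and all were taken on day 2 after renal ischemia-reperfusion injury (IRI) with 45 min of ischemia, so that the controls carry the injury too. CD4IKK1 and CD4NIK mice combine a Cre recombinase driven by the CD4 promoter with a floxed *Chuk* gene (IKK1) or a floxed *Map3k14* gene (NIK), the kinases of non-canonical NFκB activation. The CD4+ T cells were enriched with magnetic beads and sorted by FACS, and their RNA was amplified before sequencing. The 3 groups ask whether loss of either kinase changed the RNA of these cells after injury.

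When the T cell receptor is engaged, Lck, bound to the co-receptor CD4, phosphorylates the CD3 and zeta chains. Zap70 docks there and phosphorylates the membrane adaptor Lat and the cytosolic adaptor Lcp2 (SLP-76), which together hold Plcg1. Plcg1 then cleaves a membrane lipid into second messengers that raise calcium and activate protein kinase C and Ras, and these lead to NFAT, NFκB and AP-1. Ptprc (CD45) keeps Lck and Fyn ready by removing an inhibitory phosphate, Cd5 dampens the signal, and Lime1 is a membrane adaptor that binds Lck and Csk. Lck, Zap70 and Cd5 are made mainly in lymphocytes, Lat and Lcp2 also in platelets and mast cells, and Lcp2 in other myeloid cells too. Ptprc is made in all leukocytes, whereas Fyn and Plcg1 are used by many tissues, the brain among them.

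The stretch of 250 bases before the transcription start is shown for 4 members, chosen after their values were seen because their levels below differ in kind. *Lck* and *Cd5* overlapped between CD4cre and CD4NIK libraries when taken per T cell receptor count, *Lcp2* rose most in CD4NIK libraries, and *Plcg1* varied least. Sequences were read from GRCm39 at the start of the canonical transcript of GENCODE release 39 and run 5′ to 3′ along the gene's strand. Capitals mark matches on either strand to 4 short motifs of promoters: ETS (AGGAAG), RUNX (TGTGGT), E-box (CAGGTG) and GC box (GGGCGG).
Lck promoter, chr4:129467435-129467684, minus strand: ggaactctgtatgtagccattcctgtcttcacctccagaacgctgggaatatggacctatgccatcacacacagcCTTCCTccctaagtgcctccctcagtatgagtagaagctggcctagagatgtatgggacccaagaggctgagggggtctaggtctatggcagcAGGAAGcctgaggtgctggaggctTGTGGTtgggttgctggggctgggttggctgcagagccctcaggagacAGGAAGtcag
Cd5 promoter, chr19:10716367-10716616, minus strand: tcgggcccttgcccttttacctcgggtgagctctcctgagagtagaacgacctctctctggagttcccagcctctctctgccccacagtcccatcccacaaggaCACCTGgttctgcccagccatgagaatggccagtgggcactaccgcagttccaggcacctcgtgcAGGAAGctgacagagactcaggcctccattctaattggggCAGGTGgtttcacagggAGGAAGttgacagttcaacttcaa
Lcp2 promoter, chr11:33996670-33996919, plus strand: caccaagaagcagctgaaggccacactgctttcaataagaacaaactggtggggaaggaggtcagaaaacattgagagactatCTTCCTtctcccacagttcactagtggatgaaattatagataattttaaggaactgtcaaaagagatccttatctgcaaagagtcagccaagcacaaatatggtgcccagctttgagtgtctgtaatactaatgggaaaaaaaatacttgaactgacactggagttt
Plcg1 promoter, chr2:160573403-160573652, plus strand: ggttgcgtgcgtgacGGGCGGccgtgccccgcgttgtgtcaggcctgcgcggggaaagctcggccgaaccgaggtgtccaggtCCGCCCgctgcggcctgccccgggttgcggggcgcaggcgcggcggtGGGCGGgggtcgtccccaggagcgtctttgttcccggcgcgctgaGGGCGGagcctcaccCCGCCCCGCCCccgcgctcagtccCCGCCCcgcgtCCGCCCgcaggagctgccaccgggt
An ETS match was present in the windows of 7 of the 9 members (all but *Plcg1* and *Lime1*), and in 28.7% of the windows of 14786 tested genes. The RUNX motif was found before *Lck*, *Lat* and *Lime1* (12.1% of all windows), and the E-box before *Zap70*, *Cd5* and *Lime1* (17.2% of all windows). A GC box was found in 1 member, *Plcg1*, with 8 matches of which an adjacent pair shares a base, against 45.7% of all windows. The *Plcg1* window was 78.8% G and C with 38 CpG dinucleotides, that of *Lck* was 56.4% with 1 CpG, and that of *Lcp2* was 40.4% with none, where the median of all windows was 56% and 11. The 10-base kappa-B consensus of NFκB factors was in none of the 9 windows and in 8.48% of all windows. These are matches of letters within this window and say nothing about binding.

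Total estimated counts per library ran from 19030516 to 25737046 in CD4cre, from 16040843 to 21162528 in CD4IKK1 and from 15751632 to 21276839 in CD4NIK mice, and 3 counts, the floor used here, correspond to 0.117 to 0.190 CPM. CPM were normalized with TMM factors over all 11 libraries and are not corrected for gene length, and floors cover counting error only, because amplified reads without molecular tags are not independent molecules. The libraries differed widely in T cell receptor constant-region counts (*Trac*, *Trbc1* and *Trbc2* together), which summed to 35820, 22741 and 12558 in CD4cre libraries, to 41, 868, 11413, 5277 and 5644 in CD4IKK1 libraries and to 60124, 111648 and 90324 in CD4NIK libraries. CD4IKK1 replicate 1 thus held nearly no T cell receptor transcripts (*Trac* 1 count, *Cd3e* 4 counts) in spite of its CD4+ T cell label, and replicate 2 held few. Fold changes of the members that use CD4IKK1 libraries are therefore also given without replicate 1, and the number of members called without both. The targeted genes do not check the labels: *Chuk* had between 258 and 588 counts in CD4IKK1 and between 325 and 683 in CD4cre libraries, *Map3k14* had 232, 626 and 337 counts in CD4NIK and between 294 and 506 in CD4cre libraries, and counts summed over a gene do not resolve floxed exons. *Map3k14* was lowest in the libraries labelled IKK1 knockout, with 29, 94, 109, 186 and 170 counts, below every CD4cre and CD4NIK library. Its log2 fold change in CD4IKK1 mice was −1.58 ± 0.46 against CD4cre (FDR 0.148, adjusted p 0.0152 by DESeq2) and −1.91 ± 0.44 against CD4NIK mice (FDR 0.00418), both fitted by edgeR's quasi-likelihood test. Without CD4IKK1 replicate 1 these were −1.36 (FDR 0.117) and −1.68 (FDR 0.00316). In edgeR fits scaled to T cell receptor and Cd3 chain counts (below), without that library, they were 1.27 (FDR 0.350) and 3.33 (FDR 0.00618). On that scale *Map3k14* was lower in CD4NIK than in CD4cre mice (−2.06, FDR 0.00422). The medians of all genes in these 3 scaled fits were 2.80, 5.10 and −2.33. In bulk RNA, fewer T cells and less RNA of a gene per T cell cannot be told apart.

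Across the groups, all 9 members were highest in CD4NIK, intermediate in CD4cre and lowest in CD4IKK1 mice by mean CPM, and for all 9 the lowest single library was CD4IKK1 replicate 1 (for *Lcp2* together with replicate 2, both at 0). The ratio of the highest to the lowest library separated the members. It was 802 for *Lck*, 308 for *Cd5*, 233 for *Zap70*, 82.9 for *Lime1* and 63.2 for *Ptprc*, but 6.78 for *Fyn* and 4.64 for *Plcg1*. These ratios rest on CD4IKK1 replicate 1. Without it they were 47.8 for *Lck*, 57.3 for *Cd5*, 11.8 for *Zap70*, 51.3 for *Lime1*, 42.3 for *Ptprc*, 6.30 for *Fyn* and 2.96 for *Plcg1*, so that *Fyn* and *Plcg1* again varied least and the order of the others changed. For *Lat* and *Lcp2* the lowest library was at or under the floor, and no ratio is given over all libraries. Without replicate 1, that of *Lat* was 105. In the plot of CPM by library, the CD4NIK libraries lie above every other library for each member, while CD4cre and CD4IKK1 libraries overlap for *Zap70*, *Lcp2*, *Cd5* and *Lime1*. The CD4NIK libraries also lay above all others for *Trac*, *Trbc2* and *Cd3e*. Of all genes, 23% were higher without overlap in CD4NIK than in CD4cre libraries, and 24.6% than in CD4IKK1 libraries. The share of all genes with both was not counted.

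**Figure D1:**
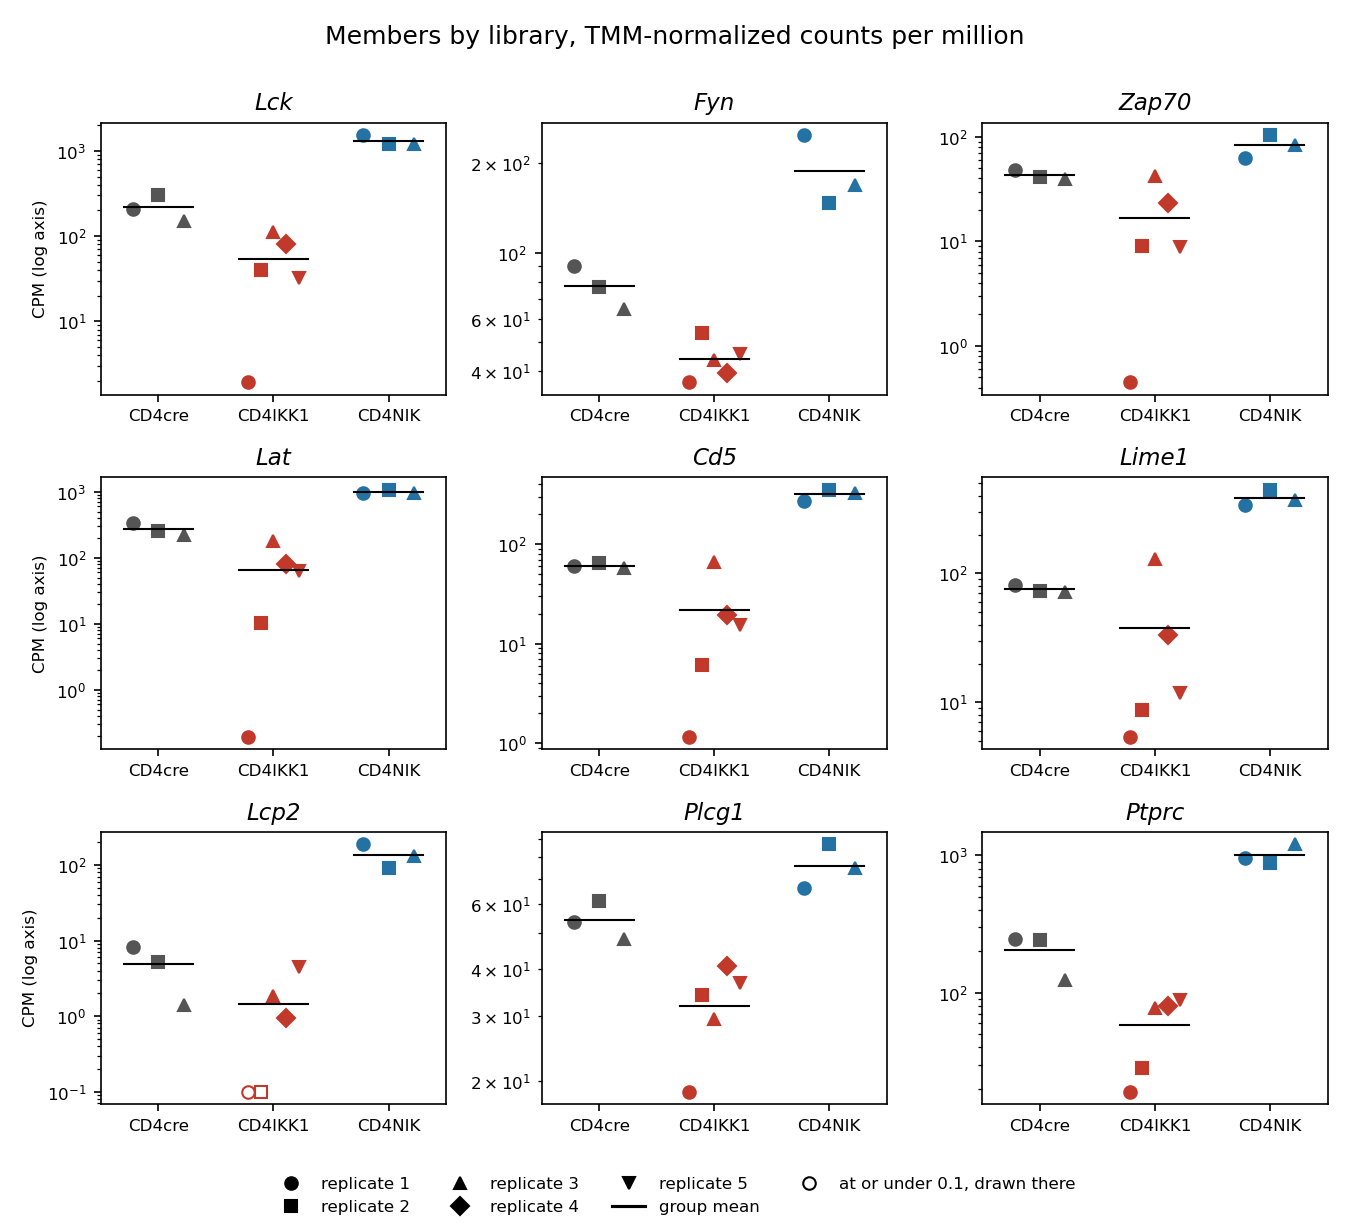
CPM of the 9 members in each of the 11 libraries, on a log axis that differs between panels. Each symbol is 1 mouse (its shape gives the replicate number), lines are group means, and open symbols mark values at or under 0.1 CPM, drawn at 0.1. CD4NIK libraries are the highest for all 9 genes, and CD4IKK1 replicate 1 (red circle) is the lowest, at 1.92 CPM for *Lck* but still at 36.7 CPM for *Fyn*.

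Among the kinases, *Lck* (chromosome 4, 129442137 to 129467434 of GRCm39, minus strand), the kinase that starts the cascade, had 209, 301 and 151 CPM in CD4cre libraries, 1.92, 40.3, 112, 80.7 and 32.2 CPM in CD4IKK1 libraries, and 1540, 1203 and 1202 CPM in CD4NIK libraries. The 3 groups did not overlap. Its level was 5.91-fold higher in CD4NIK than in CD4cre mice (log2 fold change 2.56 ± 0.28, FDR 0.00256) and 24.5-fold lower in CD4IKK1 than in CD4NIK mice (log2 fold change −4.61 ± 0.88, FDR 0.00249), both by edgeR's quasi-likelihood test with Benjamini-Hochberg adjustment (FDR). Log2 fold changes are given here and below ± their standard error. *Fyn* (chromosome 10, 39244851 to 39442227, plus strand), a second Src family kinase with overlapping roles, had 90.5, 76.8 and 64.7 CPM in CD4cre, 36.7, 53.7, 43.5, 39.5 and 45.8 CPM in CD4IKK1 and 249, 147 and 169 CPM in CD4NIK libraries. All CD4IKK1 libraries lay below all CD4cre libraries, and their values were close to each other, with the library that had nearly no T cell receptor transcripts among them. *Fyn* rose 2.41-fold in CD4NIK against CD4cre mice (log2 fold change 1.27 ± 0.25, FDR 0.0159), and in CD4IKK1 against CD4cre mice its log2 fold change was −0.82 ± 0.17 (FDR 0.0898). *Zap70* (chromosome 1, 36800837 to 36821905, plus strand), the kinase that docks on the phosphorylated receptor chains, had 48.5, 41.1 and 39.8 CPM in CD4cre, 0.448, 8.96, 42.4, 23.5 and 8.81 CPM in CD4IKK1 and 63.0, 104 and 83.7 CPM in CD4NIK libraries. CD4NIK libraries lay above the others, and CD4IKK1 replicate 3 lay within the CD4cre range. In CD4NIK against CD4cre mice *Zap70* had an FDR of 0.0284 with a 1.91-fold higher level, under the 2-fold limit used for calls (log2 fold change 0.93 ± 0.23).

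All 3 adaptors rose in CD4NIK against CD4cre mice. *Lat* (chromosome 7, 125962996 to 125968810, minus strand), the membrane scaffold on which the signalling complex is built, had 338, 251 and 222 CPM in CD4cre, 0.192, 10.2, 177, 79.4 and 63.1 CPM in CD4IKK1 and 961, 1071 and 944 CPM in CD4NIK libraries, with no overlap between groups. It was 3.63-fold higher in CD4NIK than in CD4cre mice (log2 fold change 1.86 ± 0.21, FDR 0.00255). *Lime1* (chromosome 2, 181021871 to 181025423, plus strand) had 80.6, 73.4 and 71.3 CPM in CD4cre, 5.38, 8.70, 128, 33.5 and 11.8 CPM in CD4IKK1 and 338, 446 and 372 CPM in CD4NIK libraries. CD4IKK1 replicate 3 exceeded every CD4cre library here, the other 4 CD4IKK1 libraries lay below them, and the rise in CD4NIK mice was 5.06-fold (log2 fold change 2.34 ± 0.18, FDR 0.00152). Exons of *Lime1* overlap those of *Zgpat* on the same strand, and *Zgpat* also differed between CD4NIK and CD4cre mice (log2 fold change 1.68 ± 0.26, FDR 0.00752), so that reads of the shared exons may be divided between them.

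*Lcp2* (chromosome 11, 33996920 to 34042426, plus strand), the cytosolic adaptor that links Lat to Plcg1 and to the cytoskeleton, differed most in the 2 comparisons with CD4NIK mice. It had 213, 108 and 28 counts in CD4cre libraries, 0, 0, 33, 19 and 99 counts in CD4IKK1 libraries and 3350, 1849 and 1853 counts in CD4NIK libraries. These are 8.2, 5.25 and 1.40 CPM, then 0, 0, 1.87, 0.943 and 4.45 CPM, then 187, 90.9 and 131 CPM. The lowest CD4NIK library stood far above the highest of the others, and 2 CD4IKK1 libraries had no count. The level was 27.1-fold higher in CD4NIK than in CD4cre mice (log2 fold change 4.76 ± 0.61, FDR 0.00419) and 90.8-fold lower in CD4IKK1 than in CD4NIK mice (log2 fold change −6.51 ± 1.19, FDR 0.00194), where 2 of the 5 CD4IKK1 libraries are at 0 and the fitted fold depends on the prior count. *4930469K13Rik*, whose exons overlap those of *Lcp2* on the opposite strand, had at most 52 counts in any library.

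*Plcg1* (chromosome 2, 160573176 to 160647426, plus strand), the lipase that makes the second messengers, had 53.6, 61.2 and 48.3 CPM in CD4cre, 18.7, 34.0, 29.3, 40.8 and 36.8 CPM in CD4IKK1 and 66.3, 86.8 and 74.7 CPM in CD4NIK libraries. The groups did not overlap, but the differences were small. Its log2 fold change was 0.46 ± 0.21 (FDR 0.139) in CD4NIK and −0.77 ± 0.24 (FDR 0.163) in CD4IKK1 mice, both against CD4cre, and −1.24 ± 0.23 (FDR 0.000948) in CD4IKK1 against CD4NIK mice. *Zhx3*, which shares exonic sequence with *Plcg1* on the opposite strand, had log2 fold changes of −0.18, −0.02 and 0.14 in the same order, with FDRs of 0.653, 0.985 and 0.641.

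Of the surface receptors, *Cd5* (chromosome 19, 10694480 to 10716366, minus strand), which restrains signalling, had 61.1, 65.1 and 57.4 CPM in CD4cre, 1.15, 6.18, 66.4, 19.4 and 15.5 CPM in CD4IKK1 and 271, 354 and 331 CPM in CD4NIK libraries. The CD4cre and CD4NIK libraries were tight, and CD4IKK1 libraries spread from near 0 to just above the CD4cre range. The rise in CD4NIK against CD4cre mice was 5.13-fold (log2 fold change 2.36 ± 0.18, FDR 0.00152). *Ptprc* (chromosome 1, 137990599 to 138103446, minus strand), the phosphatase CD45 of all leukocytes, had 247, 244 and 124 CPM in CD4cre, 19.0, 28.4, 77.0, 80.5 and 88.4 CPM in CD4IKK1 and 955, 881 and 1202 CPM in CD4NIK libraries. The groups were separate, and *Ptprc* was 4.89-fold higher in CD4NIK than in CD4cre mice (log2 fold change 2.29 ± 0.29, FDR 0.00423) and 17.2-fold lower in CD4IKK1 than in CD4NIK mice (log2 fold change −4.10 ± 0.49, FDR 0.000186). In CD4IKK1 against CD4cre mice its log2 fold change was −1.80 ± 0.53 (FDR 0.173).

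In CD4NIK against CD4cre mice, 7 of the 9 members rose by more than 2-fold at an FDR under 0.05 (*Lck*, *Fyn*, *Lat*, *Lcp2*, *Cd5*, *Lime1* and *Ptprc*), where 10.4% of the 15209 genes tested did. All 9 members had no overlap between groups in the direction of higher CD4NIK values, against 23% of all genes. Their median log2 fold change was 2.29, and that of all genes was −0.02. *Fyn* lost its call without CD4cre replicate 2 (FDR 0.0516) or CD4cre replicate 3 (FDR 0.0567), and *Zap70* gained one without CD4cre replicate 1 (FDR 0.0464) or CD4NIK replicate 1 (FDR 0.00744). When all 11 libraries shared 1 estimate of the spread, 3 members were called (*Fyn*, *Lcp2* and *Ptprc*), where 5.23% of the 16546 genes tested were called higher, and the FDR was 0.106 for *Lck*, 0.379 for *Lat*, 0.151 for *Cd5* and 0.159 for *Lime1*.

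In CD4IKK1 against CD4cre mice, no member was called by edgeR's quasi-likelihood test, and neither was any other of the 15653 genes tested (0%; smallest FDR 0.0543, 2592 genes at an unadjusted p under 0.05). All 9 log2 fold changes were below 0, with a median of −1.50 against 0.02 for all genes. They were −2.04 for *Lck* and for *Lat*, −1.36 for *Zap70*, −1.76 for *Lcp2*, −1.50 for *Cd5* and −1.0 for *Lime1*, with standard errors from 0.97 to 1.36 and FDRs from 0.36 to 0.715. An unadjusted p under 0.05 with lower values was reached by 3 members (*Fyn*, *Plcg1* and *Ptprc*), and by 8.91% of all genes. CD4IKK1 libraries lay below all CD4cre libraries without overlap for 5 members (*Lck*, *Fyn*, *Lat*, *Plcg1* and *Ptprc*), and for 8.44% of all genes. DESeq2, the tool the study used, called 1 member lower, *Ptprc* (adjusted p 0.0296), where it called 3.19% of the same genes lower. Its adjusted p was also under 0.05 for *Fyn* (0.000709) and *Plcg1* (0.0368), whose changes were under the 2-fold limit. Without CD4IKK1 replicate 1 the median of the members was −1.19, without replicates 1 and 2 it was −0.87, and no member was called in either fit, where 0.0259% and 0.239% of all genes were called lower. All 9 log2 fold changes stayed below 0 in each of the 8 fits that left out 1 library. Their sizes moved most for *Lime1*, from −2.33 without CD4IKK1 replicate 3 to −0.73 without replicate 1, for *Cd5*, from −2.53 to −1.19 without the same libraries, and for *Lcp2*, from −2.80 without CD4IKK1 replicate 5 to −1.18 without CD4cre replicate 1. *Zap70* had −2.04 without CD4IKK1 replicate 3. Without replicate 1, *Lck* had −1.73, *Lat* −1.72, *Zap70* −1.05 and *Lcp2* −1.44, with FDRs from 0.145 to 0.648. In the same fit, *Fyn* had a log2 fold change of −0.77 (FDR 0.0918), *Plcg1* of −0.63 (FDR 0.139) and *Ptprc* of −1.58 (FDR 0.133).

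In CD4IKK1 against CD4NIK mice, 8 of the 9 members fell by more than 2-fold at an FDR under 0.05, where 18.5% of the 16546 genes tested did, and all 9 lacked overlap between groups, against 24.6% of all genes. *Zap70* was the exception, with a log2 fold change of −2.31 ± 0.86 (FDR 0.0539). Besides the values above, the log2 fold change was −2.09 for *Fyn* (FDR 3.11e-05), −3.91 for *Lat* (FDR 0.0246), −3.87 for *Cd5* (FDR 0.00729) and −3.36 for *Lime1* (FDR 0.0145). The median was −3.87, and that of all genes was 0.06. Without CD4IKK1 replicate 1, and without replicates 1 and 2, all 9 members were called, where 18% and 17.1% of all genes were called lower, and *Zap70* had an FDR of 0.00696 and 0.0136. Without replicate 1 the log2 fold changes were −4.30 for *Lck*, −2.04 for *Fyn*, −2.0 for *Zap70*, −3.59 for *Lat*, −6.20 for *Lcp2*, −1.10 for *Plcg1*, −3.57 for *Cd5*, −3.08 for *Lime1* and −3.88 for *Ptprc*. *Zap70* was also called without CD4IKK1 replicate 3 (FDR 0.0156), while *Lat* lost its call without CD4NIK replicate 1 (FDR 0.0587), replicate 2 (FDR 0.0607) or replicate 3 (FDR 0.0651). The 3 comparisons share groups, so that a high or low group counts in 2 of them. The plot of fold changes shows the members side by side.

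**Figure D2:**
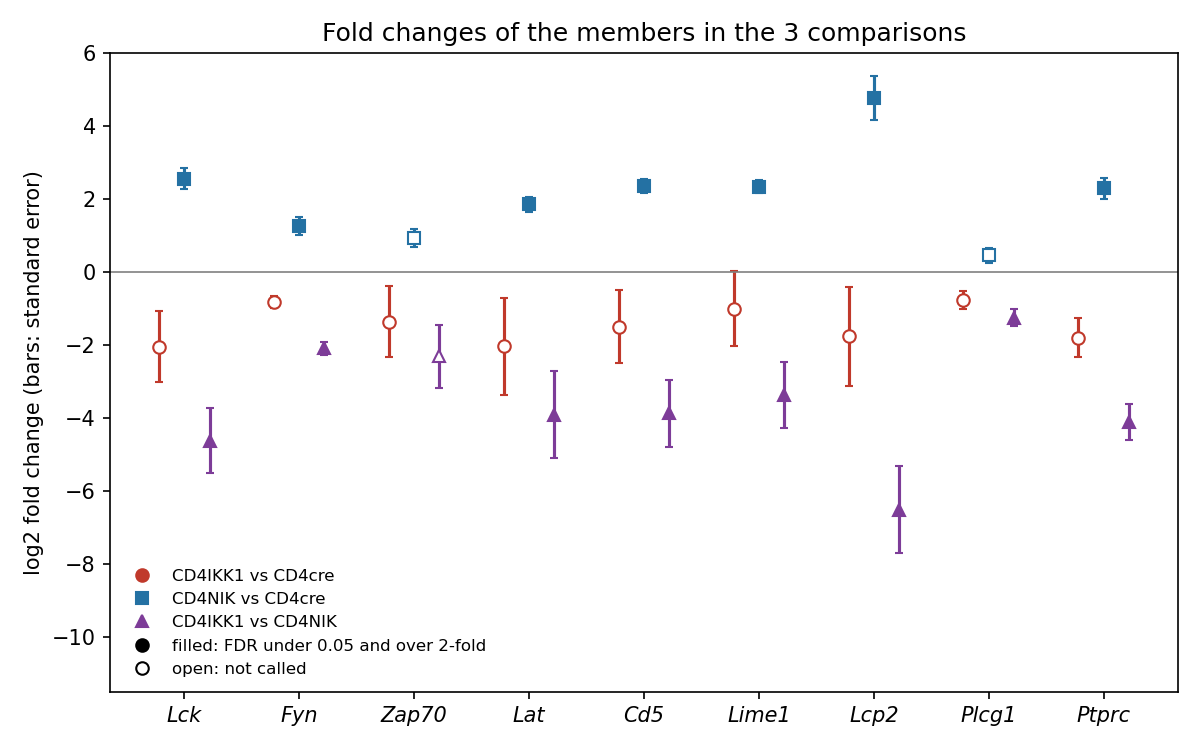
Log2 fold change of each member in the 3 comparisons (edgeR, bars are standard errors), filled where the FDR is under 0.05 and the change over 2-fold. Values against CD4cre lie above 0 in CD4NIK and below 0 in CD4IKK1 mice for all 9 genes. *Lcp2* has the largest values of the 2 comparisons with CD4NIK mice (4.76 and −6.51), and *Plcg1* the smallest in all 3.

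The members varied together. Over the 11 libraries, Pearson's r of log2 CPM between each member and the mean of the other 8 was 0.990 for *Cd5*, 0.978 for *Lck*, 0.960 for *Ptprc*, 0.947 for *Lat*, 0.945 for *Lime1*, 0.923 for *Plcg1*, 0.915 for *Zap70*, 0.914 for *Lcp2* and 0.847 for *Fyn*. Over the 10 libraries without CD4IKK1 replicate 1 they ran from 0.863 (*Plcg1*) to 0.982 (*Cd5*). The points share group and library, so that these values describe the libraries and were not tested. Of 16537 other genes, the 10 most alike to the mean of the members were *Sash3*, *Flt3l*, *Laptm5*, *Il21r*, *Dusp5*, *Selplg*, *Slfn2*, *Dennd1c*, *Cxcr3* and *Skap1*, with r from 0.990 to 0.995. *Cxcr3* is a chemokine receptor of effector T cells, and *Il21r* the receptor of interleukin 21. The summed CPM of 10 T cell markers, the receptor complex, *Cd4*, *Cd28* and *Cd2*, ran from 1111 to 2364 in CD4cre, from 8.26 to 970 in CD4IKK1 and from 5560 to 9889 in CD4NIK libraries.

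Because T cell receptor transcripts varied with the members, each member was also given per 100 T cell receptor constant-region counts of its library, and the log2 ratios were compared by exact two-sided permutation tests, adjusted over 27 tests. None passed (smallest adjusted p 0.413), and with 3 against 3 libraries no p under 0.1 can be reached (0.0179 with 3 against 5). Differences in *Lck*, *Lat*, *Cd5*, *Lime1* and *Ptprc* between CD4NIK and CD4cre mice, which spanned 1.86 to 2.56 in log2 fold change of CPM, were between −0.41 and 0.31 on this scale, and their groups overlapped. *Cd5* had 4.43, 5.89 and 9.13 per 100 in CD4cre and 8.07, 6.46 and 5.19 in CD4NIK libraries. *Lck* had 15.2, 27.2 and 24.0 in CD4cre and 45.9, 21.9 and 18.9 in CD4NIK libraries. *Fyn* had 6.57, 6.95 and 10.3 in CD4cre, 1399, 118, 6.71, 15.1 and 18.0 in CD4IKK1 and 7.42, 2.67 and 2.65 in CD4NIK libraries. Its CD4NIK libraries reached into the CD4cre range with 1 library, replicate 1 (log2 difference −1.05, exact permutation p = 0.3).

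*Lcp2*, *Zap70* and *Plcg1* behaved otherwise on this scale. *Lcp2* had 0.593, 0.477 and 0.221 per 100 T cell receptor counts in CD4cre, 0.0799, 0, 0.291, 0.363 and 1.75 in CD4IKK1 and 5.57, 1.66 and 2.05 in CD4NIK libraries. These ratios use estimated counts before rounding, and the value of CD4IKK1 replicate 1 stands for 0.0327 of a count, under the floor. *Lcp2* stayed higher in CD4NIK than in CD4cre mice without overlap, by 2.72 on the log2 scale (exact permutation p = 0.1, the smallest that 3 against 3 libraries allow). *Zap70* had 3.52, 3.72 and 6.34 in CD4cre, 17.1, 19.7, 6.55, 8.96 and 3.47 in CD4IKK1 and 1.88, 1.90 and 1.31 in CD4NIK libraries. *Plcg1* had 3.89, 5.54 and 7.68 in CD4cre, 712, 74.8, 4.53, 15.6 and 14.5 in CD4IKK1 and 1.98, 1.58 and 1.17 in CD4NIK libraries. Both were lower in CD4NIK than in every CD4cre library, by log2 differences of −1.38 and −1.83 (exact permutation p = 0.1 each). In CD4IKK1 against CD4NIK libraries they were higher without overlap, by 2.5 for *Zap70* (exact permutation p = 0.0357) and 4.51 for *Plcg1* (exact permutation p = 0.0536), and adjusted p was 0.413 for both. Without CD4IKK1 replicate 1, whose ratios rest on 41 receptor counts, the differences were 2.25 and 3.43, with an adjusted p of 0.386.

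**Figure D3:**
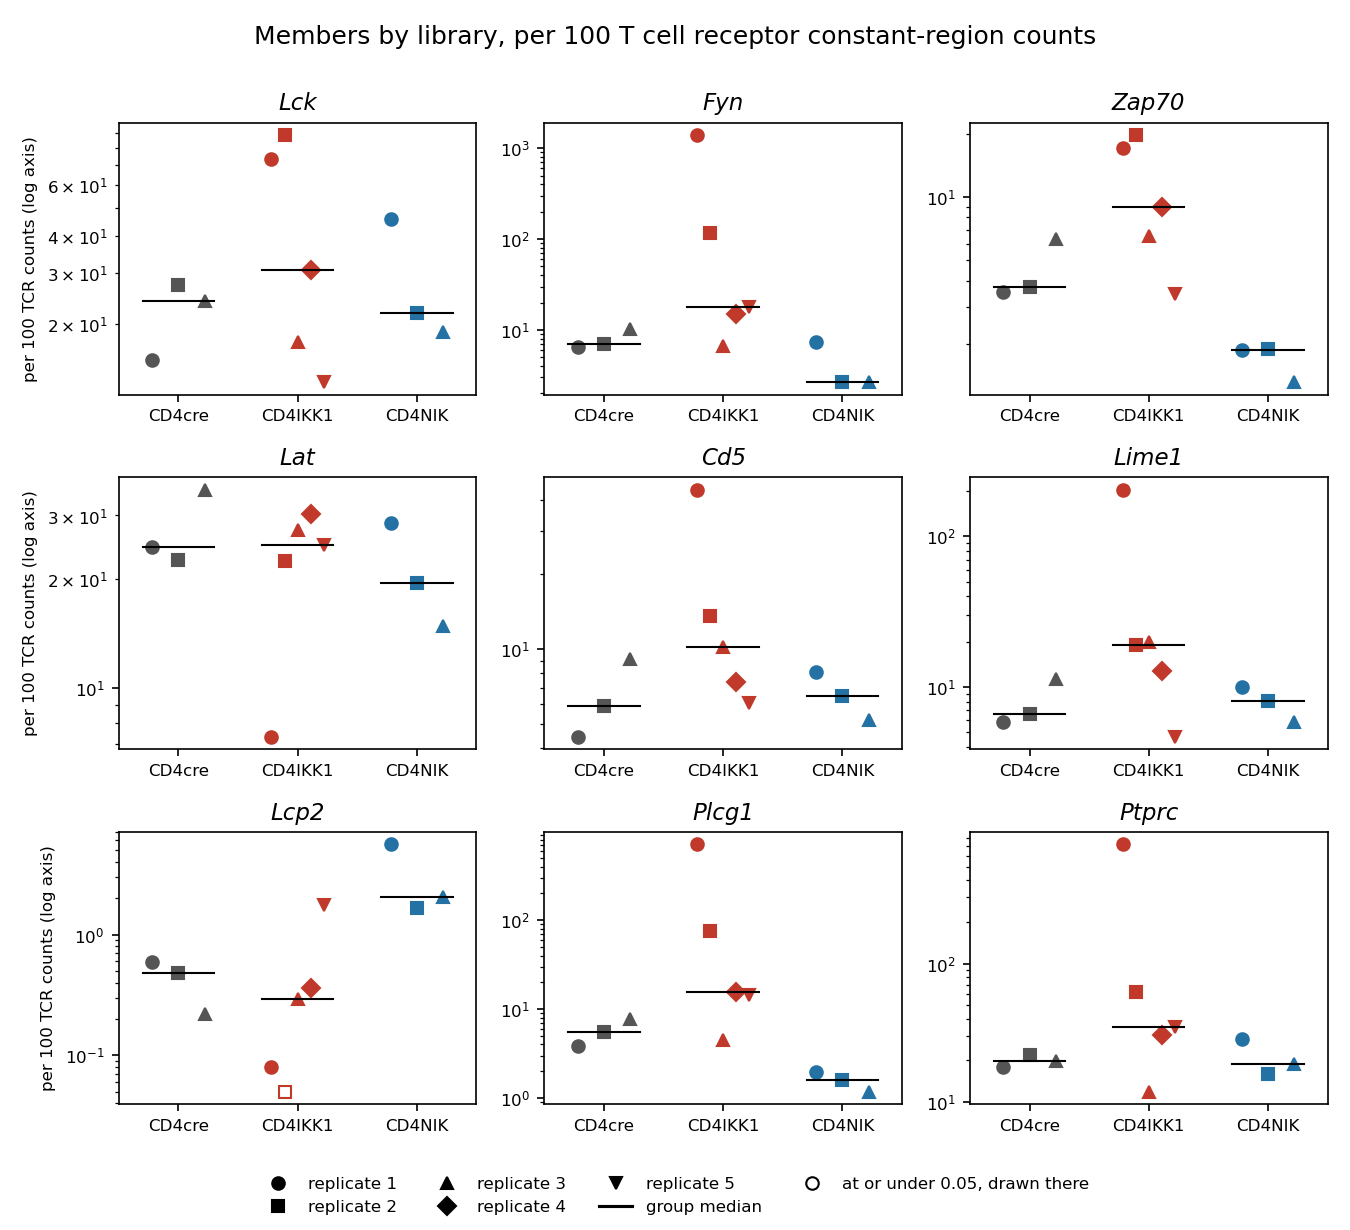
Counts of each member per 100 T cell receptor constant-region counts (*Trac*, *Trbc1* and *Trbc2*) in each library, on log axes that differ between panels, with lines at group medians and open symbols for values at or under 0.05. *Lck*, *Lat*, *Cd5*, *Lime1* and *Ptprc* overlap between CD4cre and CD4NIK libraries, *Lcp2* lies higher and *Zap70* and *Plcg1* lie lower in all 3 CD4NIK libraries. CD4IKK1 replicate 1, with 41 receptor counts, stands far above the rest for *Fyn*, *Plcg1*, *Cd5*, *Lime1* and *Ptprc*.

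A related quantity was tested across all genes by scaling each library in edgeR's quasi-likelihood fit to its counts of *Trac*, *Trbc1*, *Trbc2* and, unlike the ratios above, also the Cd3 and zeta chains. This moves the median of all genes to a log2 fold change of −2.33 in CD4NIK against CD4cre mice, and 68.7% of the 15209 genes were called lower, *Zap70* (−1.41, FDR 0.0231) and *Plcg1* (−1.85, FDR 0.00512) among them. The lower ratio of both is therefore shared with most genes. *Lcp2* was called higher (2.83 ± 0.64, FDR 0.000869), as were 0.552% of all genes. In CD4IKK1 against CD4NIK mice without CD4IKK1 replicate 1, 84.2% of the 16348 genes tested were called higher, with *Fyn* (3.16, FDR 0.00533), *Zap70* (2.46, FDR 0.0249) and *Plcg1* (4.07, FDR 0.000689) among them, and 0.41% were called lower, among them *Lcp2* (−2.30 ± 1.13, FDR 0.0488). With replicate 1 included *Lcp2* was not called (−2.47, FDR 0.181). In CD4IKK1 against CD4cre mice without replicate 1, no member was called on this scale, where 0.182% of 15419 genes were called higher. The median of all genes still moved to 2.80 there, above all members, which ran from −0.08 (*Lat*) to 2.27 (*Fyn*).

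Other genes of the pathway were counted in lists set by function, beside 10.4% of all genes called higher and 6.99% called lower in CD4NIK against CD4cre mice. In CD4NIK against CD4cre mice, 9 of 10 genes of the receptor complex and co-receptors rose, with a median log2 fold change of 2.12 (*Trac* 2.74, *Cd3e* 2.96, *Cd4* 2.49; *Cd247*, the zeta chain, had 1.29 with an FDR of 0.245). Of 6 other kinases, 3 rose, among them *Map4k1* (2.02), a negative regulator, and *Prkcq* (2.04), the protein kinase C of the synapse. Of 24 other adaptors and scaffolds, 15 rose and none fell (median 1.35), with *Skap1* (2.23), *Sit1* (1.78) and *Lax1* (2.16) at the smallest p-values. Of 16 brakes of the signal, 10 rose and 1 fell (median 1.71). *Ubash3a* (2.06), *Dgka* (1.82), a kinase that removes diacylglycerol, and *Sla* (3.87), an adaptor that promotes receptor breakdown, rose most clearly. *Dgkz*, the second diacylglycerol kinase of T cells, went the other way, with 125, 137 and 162 CPM in CD4cre and 51.6, 41.3 and 32.1 CPM in CD4NIK libraries (log2 fold change −1.78 ± 0.24, FDR 0.00478).

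Genes further downstream were less uniform. Of 15, 4 rose in CD4NIK against CD4cre mice (*Nfatc3* 1.64, *Ppp3cc* 1.43, *Nfatc1* 1.81 and the calcium channel subunit *Orai1* 1.37) and 2 fell, the kinase *Mapk3* (−1.17) and the calcineurin subunit *Ppp3ca* (−1.05), with a median of 0.25. Of 7 tested counterparts from B and myeloid cells, 1 rose, *Fgr* (2.21). In CD4IKK1 against CD4NIK mice, where 18.5% of all genes were called lower and 14.8% higher, all 10 genes of the receptor complex and all 6 kinases fell, with *Cd3e* at −5.46 and the kinase *Tec* at −6.49. Among the adaptors 19 of 24 fell (*Trat1* −4.04, *Nck1* −2.18, *Pag1* −3.12), and among the brakes 12 fell (*Ubash3a* −3.98, *Dgka* −3.95, *Dok1* −4.69) while *Dgkz* (1.08) and *Dusp22* (1.02) rose. Downstream, 6 fell (*Ppp3cc* −1.83, *Nfatc3* −3.47, *Orai1* −3.28) and 3 rose (*Mapk3* 1.48, *Ppp3ca* 1.33, *Ppp3cb* 1.03), and of 8 counterparts 3 fell, among them *Fgr* (−6.90) and *Syk* (−1.97).

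Without CD4IKK1 replicate 1 these counts were 10, 6, 21, 12 and 6 lower for receptor complex, kinases, adaptors, brakes and downstream genes, with 1 brake and 2 downstream genes higher and 2 counterparts lower, and they were the same without replicates 1 and 2. Of all genes, 18% and 17.1% were called lower and 14.1% and 13% higher in these fits. In CD4IKK1 against CD4cre mice, edgeR called no gene of these lists with all libraries or without replicate 1, and it called 4 lower without replicates 1 and 2 (1 of the receptor complex, 2 adaptors and 1 brake), where 0.239% of the 15091 genes tested were called lower. DESeq2 called 16 of the 78 list genes lower with all libraries and 0 higher, where it called 3.19% of all genes lower. These were 3 kinases (*Tec* among them, log2 fold change −5.0), 6 adaptors (*Pag1* −2.22), 5 brakes (*Ubash3a* −1.92) and 2 downstream genes (*Orai1* −1.90), and none of the receptor complex or the counterparts. The medians over all libraries were −2.14 for the receptor complex, −1.95 for the kinases, −1.54 for the adaptors, −1.85 for the brakes, −0.06 for the downstream genes and −1.33 for the counterparts, of which 5 of 7 lay below 0, 3 of them at an unadjusted p under 0.05. The plot of the pathway shows the lists beside the members.

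**Figure D4:**
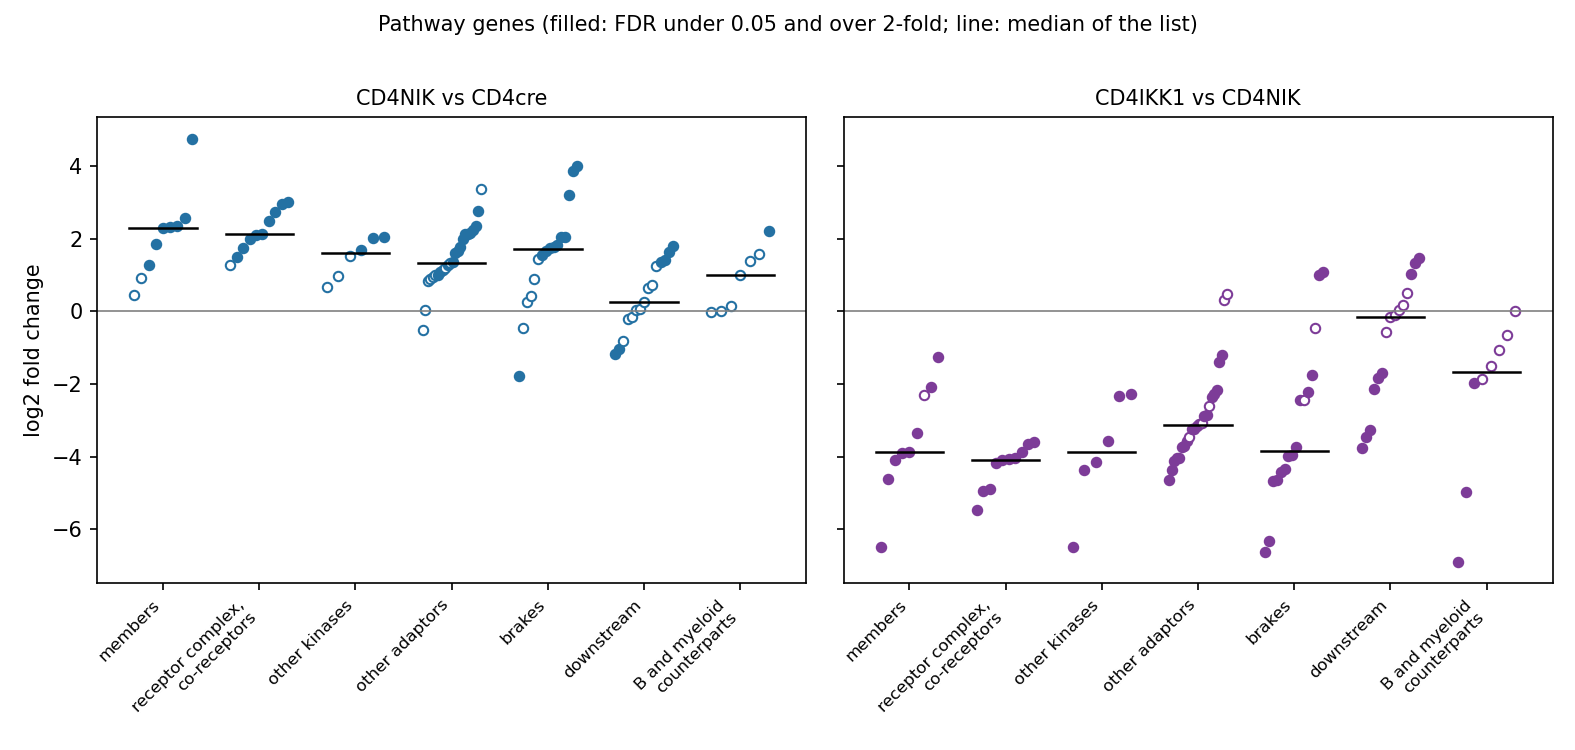
Log2 fold changes of the members and of 6 lists of pathway genes in CD4NIK against CD4cre mice (left) and CD4IKK1 against CD4NIK mice (right); each point is 1 gene, filled where called, and lines are list medians. The receptor complex and the other kinases lie above 0 on the left and below 0 on the right, whereas the downstream genes lie on both sides, with medians of 0.25 and −0.15.

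Transcripts of other cells also differed between the groups, and their part in these results was not tested. Markers of NK and CD8 T cells (5 genes) summed to 7.91 to 30.8 CPM in CD4cre, 0.64 to 7.25 CPM in CD4IKK1 and 28.5 to 104 CPM in CD4NIK libraries, so that their ranges followed the order of the members. B cell markers (5 genes) summed to 1.99 to 5.76, 0.546 to 5.56 and 3.63 to 24.4 CPM. The summed level of the 7 neuron and glia markers was lowest in CD4NIK libraries, with 890 to 1123 CPM in CD4cre, 910 to 1279 CPM in CD4IKK1 and 268 to 663 CPM in CD4NIK libraries, and 4 of the 6 tested fell in CD4NIK against CD4cre mice. *Mog* and *Gfap*, both near 0, had their lowest mean in CD4cre libraries. *Mapk3*, the downstream kinase that fell there, had 234 to 271, 286 to 340 and 86.6 to 149 CPM.

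The 10 myeloid markers summed to 1068 to 1603 CPM in CD4cre, 1073 to 1350 CPM in CD4IKK1 and 703 to 1221 CPM in CD4NIK libraries, and none of the 7 tested was called by edgeR in CD4NIK against CD4cre mice, where 1 was lower at an unadjusted p under 0.05. *Cst3*, which many cells make, contributed 847 to 908, 993 to 1299 and 362 to 633 CPM to it, while *Itgam* was at 0 in all CD4cre and *Fcer1g* in all CD4IKK1 libraries. The other myeloid markers were mostly low in CD4IKK1 libraries: *Lyz2*, the lysozyme of macrophages, had 82.7 to 351 CPM in CD4cre, 0.943 to 23.5 CPM in CD4IKK1 and 174 to 332 CPM in CD4NIK libraries. In CD4IKK1 against CD4cre mice the 7 tested had a median log2 fold change of −1.91, with 5 below 0, 4 of them at an unadjusted p under 0.05, and edgeR called 0, whereas DESeq2 called 4 lower. Against CD4NIK mice, 3 were called lower in CD4IKK1 mice (*Lyz2*, *Fcgr3* and *Tyrobp*) and 1 higher (*Cst3*). DESeq2 called 3.19% of all genes lower in CD4IKK1 against CD4cre mice. The part of these markers in the members' lower CD4IKK1 values was not tested. Erythroid markers (5 genes) summed to 2081 to 2678, 533 to 1610 and 1190 to 8173 CPM (in CD4IKK1 against CD4cre mice DESeq2 called 4 of the 5 lower and edgeR 0), endothelial markers (5 genes) to 106 to 130, 111 to 141 and 73.3 to 80.3 CPM, and kidney tubule markers (7 genes) to 16.2 to 67.0, 3.07 to 9.48 and 9.09 to 94.0 CPM. The endothelial sum was mostly *Plvap* (86.3 to 109, 98.2 to 133 and 28.9 to 49.8 CPM). *Pecam1* went the other way, with 9.01 to 16.8, 6.97 to 11.5 and 21.9 to 49.3 CPM. Of 4 endothelial markers tested in CD4NIK against CD4cre mice, edgeR called 1 higher and 1 lower, where 10.4% and 6.99% of all genes were. Neutrophil, platelet, mast cell and fibroblast markers summed to at most 30.5 CPM in any library, with *Ly6g* and *Ncr1*, which define neutrophils and NK cells, at 0 in all CD4cre and CD4IKK1 libraries.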

How the data were processed

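RNA sequencing of renal CD4+ T cells from 3 CD4cre, 5 CD4IKK1 and 3 CD4NIK mice was analysed, grouped by sample titles. The authors trimmed reads with Trimmomatic and quantified them with kallisto. Their deposited table gives unnormalized estimated counts by gene symbol. The version of kallisto, its annotation and use of strand are not given in the sources used here, and the build is GRCm39 in the study's methods but mm10 in the submitters' processing notes. Positions and promoters were taken by symbol from GENCODE release 39 on GRCm39, where 33508 symbols (93.6%) matched.

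Counts, of which 35.1% to 41.7% per library were not whole, were rounded, filtered by expression, scaled by TMM and fitted by robust quasi-likelihood in edgeR (4.0.16, under R 4.3.3), after tests on simulated data. P-values were adjusted by Benjamini-Hochberg over all genes tested (FDR). Calls required more than 2-fold change and FDR under 0.05. Comparisons with CD4cre used their own libraries, and CD4IKK1 against CD4NIK used all 11. Standard errors were derived from the F statistic. Ratios to T cell receptor counts had a pseudocount of 1. Of 55 library pairs, 0 were identical. The replicate numbers of the labels gave no sign of pairing the libraries, whose deviations from the group means correlated between −0.089 and 0.077.

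The members, lists and tests were chosen with earlier results of these data known. Named were all members, the targeted and T cell receptor genes, the 3 called pathway genes of smallest p per list, direction and comparison, genes going against their list, the 10 genes most alike to the members, and markers. Some genes under this rule are not reported here. *Nfatc1* and *Orai1* in CD4NIK against CD4cre mice, the overlapping genes, the genes called by DESeq2 and the printed sequences were added after values were seen. Alternatives were DESeq2 1.42.0, other normalizations, filters and call rules, other libraries, a replicate block and T cell receptor scaling. Leaving out CD4IKK1 replicates 1 and 2 together, and the pathway counts without libraries or after scaling, the spread and correlations of members and *Map3k14* without CD4IKK1 replicate 1, were chosen after seeing the data.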

Additional observations from a re-analysis of the deposited data

Results flagged for a closer look

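In 5 CD4IKK1 libraries, replicate 3 stood apart from the others for *Cd5* (66.4 CPM) and for *Lime1* (128 CPM) by Dixon's test at the 95% level, which chance passes in about 1 of 20 groups. The *Lat* log2 ratio to T cell receptor constant-region counts stood apart in CD4IKK1 replicate 1 (−3.39), which rests on 3 *Lat* and 41 receptor counts. The effects of the 2 genotypes against CD4cre differed for 8 members, tested as CD4IKK1 against CD4NIK with edgeR. These differences were −4.61 for *Lck*, −2.09 for *Fyn*, −3.91 for *Lat*, −6.51 for *Lcp2*, −1.24 for *Plcg1*, −3.87 for *Cd5*, −3.36 for *Lime1* and −4.10 for *Ptprc* on the log2 scale, and they sit beside the difference in T cell receptor counts between the groups.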

How the results depend on the processing

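The number of members called in CD4IKK1 against CD4cre stayed at 0 in every edgeR fit, the lowest and highest without 1 library included (0 and 0), and was 1 with DESeq2. Genes called there were 542 with DESeq2 (40 higher, 502 lower), 1 with RLE factors, 1 with upper-quartile factors, 48 without an expression filter, 129 with all 11 libraries, 28 with T cell receptor scaling and CD4IKK1 replicate 1 left out, 36 without CD4IKK1 replicates 1 and 2, and 0 to 23 without 1 library (23 without CD4IKK1 replicate 4, 9 without replicate 3, 4 without replicate 1, 2 without CD4cre replicate 3). In CD4NIK against CD4cre, members called were 3 with all 11 libraries, 3 with T cell receptor scaling (1 higher, 2 lower) and 6 to 8 without 1 library. Genes called were 10530 with T cell receptor scaling and 674 to 3468 without 1 library, where they were 1001 without CD4cre replicate 2, 859 without CD4cre replicate 3, 918 without CD4NIK replicate 2 and 674 without CD4NIK replicate 3, against 2649. Higher and lower calls were 1586 and 1063, but 1398 and 1717 with upper-quartile factors, 1382 and 1438 with library size alone, and 865 and 1264 with all 11 libraries, and upper-quartile factors moved the median of all genes to −0.16. In CD4IKK1 against CD4NIK, members called were 7 to 9 without 1 library, 2 with T cell receptor scaling and 4 with it and without CD4IKK1 replicate 1, and genes called were 14469 and 13836 (4116 to 5556 without 1 library). The split of 2444 higher and 3068 lower became 3213 and 2575 with upper-quartile factors, which moved the median of all genes to 0.30. The replicate numbers gave no sign of pairing the libraries (correlations of deviations from −0.089 to 0.077). A replicate block gave 0, 7 and 7 members called and 3, 1185 and 4994 genes called in CD4IKK1 against CD4cre, CD4NIK against CD4cre and CD4IKK1 against CD4NIK mice. The cause of these changes was not tested.

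T cell receptor scaling raises all genes where receptor counts are low, which turned most member values. In CD4IKK1 against CD4cre the log2 fold changes became 0.84 for *Lck*, 4.88 for *Fyn*, 1.14 for *Zap70*, 0.36 for *Lcp2*, 4.45 for *Plcg1*, 1.06 for *Cd5*, 2.35 for *Lime1* and 2.73 for *Ptprc* (median 1.14, against 5.74 for all genes), and without CD4IKK1 replicate 1 they were 0.71, 2.27, 1.06, 0.52, 2.22, 0.50, 0.80 and 0.79 in that order (median 0.79, against 2.80). In CD4IKK1 against CD4NIK they became 0.45 for *Lck*, 5.77 for *Fyn*, 2.55 for *Zap70*, 0.061 for *Lat*, 6.29 for *Plcg1*, 1.04 for *Cd5*, 2.33 for *Lime1* and 2.64 for *Ptprc* (median 2.33, against 8.02 for all genes), and without CD4IKK1 replicate 1 they were 0.33, 3.16, 2.46, 0.30, 4.07, 0.48, 0.78 and 0.70 (median 0.70, against 5.10). In CD4NIK against CD4cre they became −0.90 for *Fyn*, −1.41 for *Zap70*, −0.39 for *Lat* and −1.85 for *Plcg1*. Of the ratios to T cell receptor counts, none of which passed a test, those in CD4IKK1 against CD4NIK became −0.045 for *Lck* and −0.31 for *Lat* with the Cd3 chains as the denominator. Without 1 library the ratio differences near 0 changed sign: *Cd5* −0.18 to 0.34, *Lck* −0.077 to 0.56, *Lime1* −0.15 to 0.33 and *Ptprc* −0.19 to 0.23 in CD4NIK against CD4cre, *Lat* −0.15 to 0.37 and *Lck* −0.0040 to 0.73 in CD4IKK1 against CD4NIK, and *Lcp2* −0.047 to 1.06 in CD4IKK1 against CD4cre. Depth limits *Lat* and *Lcp2* in CD4IKK1 replicate 1, and 41 receptor counts limit every ratio there.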

Other observations

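Scaled to T cell receptor and Cd3 chain counts, 1 gene of the pathway lists was called higher in CD4NIK than in CD4cre mice beside *Lcp2*. This gene, *Sla*, an adaptor that promotes breakdown of the receptor, had 134, 52 and 19 counts in CD4cre, 0, 69, 99, 74 and 65 counts in CD4IKK1 and 1145, 608 and 487 counts in CD4NIK libraries. Its log2 fold change was 3.87 ± 0.62 (FDR 0.00824) in CPM and 1.97 ± 0.69 (FDR 0.0163) on the scaled counts, by edgeR's quasi-likelihood test. On that scale no other gene of the 6 lists was called higher. Called lower were 2 of 6 other kinases, 7 of 24 adaptors, 5 of 16 brakes, 10 of 15 downstream genes and 3 of 7 counterparts, where 68.7% of all genes were. The list of the receptor complex and co-receptors is not read on this scale, because its receptor, Cd3 and zeta chain genes set the scale. *Tec* was near absent from CD4IKK1 libraries, with 0, 5, 5, 24 and 9 counts against 623, 240 and 112 in CD4cre and 895, 510 and 641 in CD4NIK libraries, and its log2 fold change in CD4IKK1 against CD4cre mice was −4.97 ± 0.93 (FDR 0.0733). On the scaled counts without CD4IKK1 replicate 1, *Tec* was called neither against CD4cre (−2.10 ± 1.48, FDR 0.200) nor against CD4NIK mice (−1.64 ± 1.25, FDR 0.205). The medians of all genes in these 2 fits were 2.80 and 5.10. *Sla* and *Tec* are shown here because of their values.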
